A study of Homo sapiens with 73 samples.

Results

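The late state of DMSO lineages R9 and R10 was examined in cultures of CHLA-9, a long-established line of Ewing sarcoma cells with the gene fusion EWSR1-FLI1. It was defined by 4 libraries, R9 at time points 8 and 9 and R10 at time points 9 and 10, set against 3 libraries of R8 at time points 8, 9 and 10, so that 7 of the 73 libraries of the series entered the comparison. All 3 lineages were founded from the same untreated parental line, carried the fusion and received DMSO, the solvent, in place of drug. R1 to R7 (49 libraries) were instead exposed for 5 days at a time to VDC (vincristine, doxorubicin, cyclophosphamide) at odd and EC (etoposide, cyclophosphamide) at even time points, at the concentration giving 70% effect, over 5 cycles. RNA was taken after each period of regrowth. R9 was sequenced at time points 1, 2, 4, 5, 6, 8 and 9, R10 at 1, 2, 5, 6, 8, 9 and 10, and R8 at 1, 2 and 4 to 10. A lineage is 1 culture sampled repeatedly, so the comparison is of 2 cultures with 1, and NPR3, CTNND2, RUBCNL and FEV were chosen as its markers from these same values. The late differences between R9 or R10 and R8 are therefore described without a test.

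Ewing sarcoma cells depend on the fusion of EWSR1 with FLI1, a factor of the ETS family, which binds GGAA repeats and drives genes such as NR0B1 and NKX2-2. FEV is itself an ETS factor and in rare Ewing tumours replaces FLI1 in the fusion. In many cell types ERK signalling raises the ETS factors ETV1, ETV4 and ETV5 together with its own inhibitors of the Sprouty and DUSP families.

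The 4 marker genes were low in parental and early cultures and at 329.0 or more in every late R9 and R10 library. Values are the deposited quantile-normalized counts, in which the lowest value of a DMSO library was shared by 13269 to 15654 genes. CTNND2, which encodes delta-catenin, a neural catenin, stood at 3009 and 3542 in late R9 and at 1395 and 3047 in late R10, against 0.962, 1.15 and 0.000731 in late R8. NPR3, the clearance receptor for natriuretic peptides, stood at 4371 and 4156 in R9 and at 1609 and 3406 in R10, against 27.7, 13.5 and 1.98 in R8. RUBCNL, a regulator of autophagosome maturation, stood at 4969 and 5692 in R9 and at 1611 and 4080 in R10, against 51.4, 38.4 and 32.3 in R8. FEV stood at 570.1 and 1106 in R9 and at 329.0 and 739.3 in R10, against 0.00565, 2.48 and 1.25 in R8. For each marker the lowest late library of R9 and R10 was R10 at time point 9, and no late R9 or R10 library overlapped with R8. On the scale of log2(value + 1), the R9 and R10 means exceeded the R8 mean by 10.98 and 10.32 for CTNND2, by 8.63 and 7.77 for NPR3, by 7.02 and 5.97 for RUBCNL and by 8.64 and 7.96 for FEV. In bulk RNA, fewer cells of a type and less RNA per cell cannot be told apart.

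**Figure D1:**
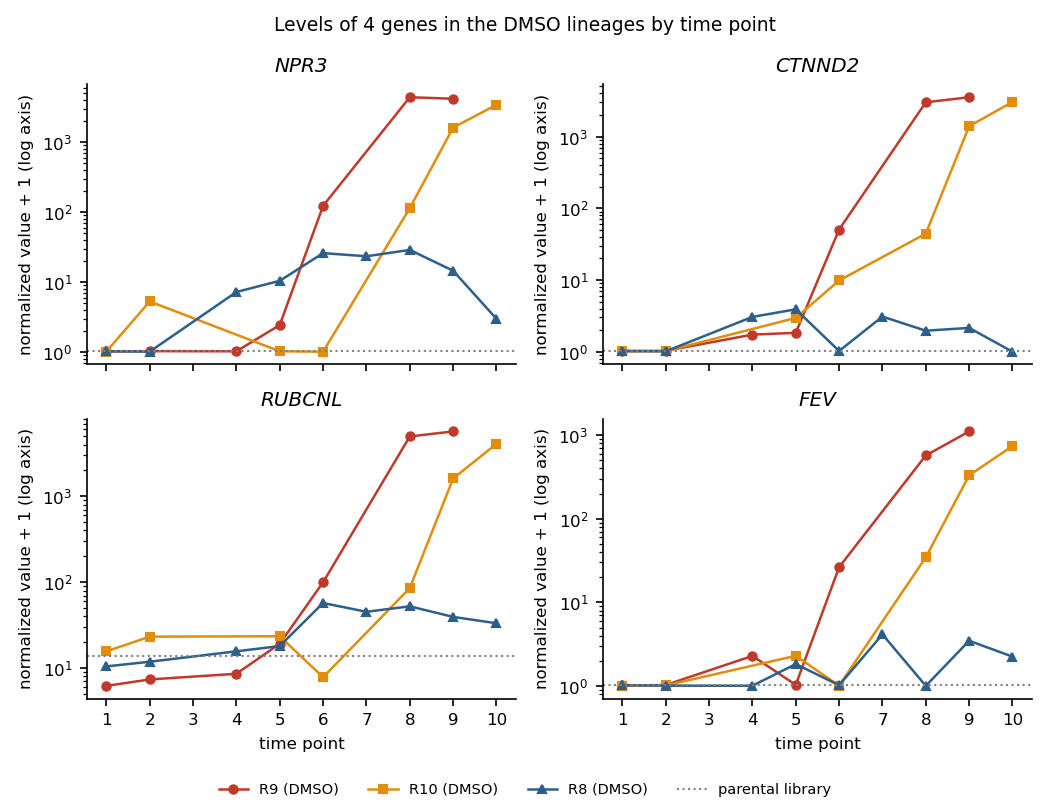
Normalized value + 1 (log axis) of NPR3, CTNND2, RUBCNL and FEV against time point in the DMSO lineages R9, R10 and R8, with 1 point per library and the parental library as a dotted line. The 2 late R9 libraries and the R10 libraries at time points 9 and 10 lie far above every R8 library, and R9 at time point 6 and R10 at time point 8 lie in between.

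Outside the libraries that defined the state, each marker had an intermediate value in 1 library of R9 and 1 of R10. In R9 at time point 6, NPR3 was at 121.7, CTNND2 at 49.6, RUBCNL at 98.8 and FEV at 25.4. At time point 5 of the same lineage NPR3 had been at 1.44 and CTNND2 at 0.832. In R10 the corresponding library was that of time point 8, with NPR3 at 112.7, CTNND2 at 43.3, RUBCNL at 84.6 and FEV at 33.7. At time point 6 of R10, NPR3 was at its library's lowest values and CTNND2 at 8.84. The same order was thus seen in both lineages, 2 time points later in R10. Across the 49 treated libraries the highest value was 35.1 for NPR3, 7.39 for CTNND2, 256.1 for RUBCNL and 7.75 for FEV, so that 0 of 49 treated libraries reached the lowest late R9 or R10 value of any marker.

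Genes were called set apart where all 4 late R9 and R10 libraries lay beyond all 3 late R8 libraries and both lineages differed from R8 by at least 1 log2 unit in the same direction. Among 14565 genes averaging 10 or more over all libraries, 564 were set apart higher (3.87%) and 482 lower (3.31%), and these shares are the background for the counts that follow. That average includes the late R9 and R10 libraries, so a gene high only there could be kept through them. Counts for gene lists are of kept members. The differences were larger among higher genes: 49 of them differed by at least 4 log2 units in both lineages, against 4 of the lower genes. Because the R9 and R10 differences share the same R8 libraries, each lineage was also compared with its own libraries of time points 1 to 6, counting a gene where late and early libraries did not overlap and the means differed by at least 1. On these separate baselines 1094 genes were higher late in R9 (7.51%), 722 in R10 (4.96%) and 126 in R8 (0.865%), and 1406 genes were lower late in R9 (9.65%), 625 in R10 (4.29%) and 69 in R8 (0.474%). The counts are not fully alike, because R8 had more late libraries than R9 or R10, and R10 had the fewest early ones. More libraries make the rule of no overlap stricter. With 1 late R8 library left out, R8 had 166 to 232 higher and 111 to 122 lower genes. R9 and R10 shared 569 higher genes (3.91%), which is 52.0% of the R9 genes and 78.8% of the R10 genes, and 275 lower genes (1.89%), which is 19.6% of the R9 genes and 44.0% of the R10 genes. Of the 564 set-apart higher genes, 364 were also higher on both own baselines, 105 on 1 of them and 95 on neither. The same late R9 and R10 libraries enter both calls, so part of this overlap is built in and only the early libraries are new. Of the 482 set-apart lower genes, only 100 were lower on both own baselines, 196 on 1 and 186 on neither. For the gene lists that follow, higher and lower refer to late R8 unless own baselines are named.

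**Figure D2:**
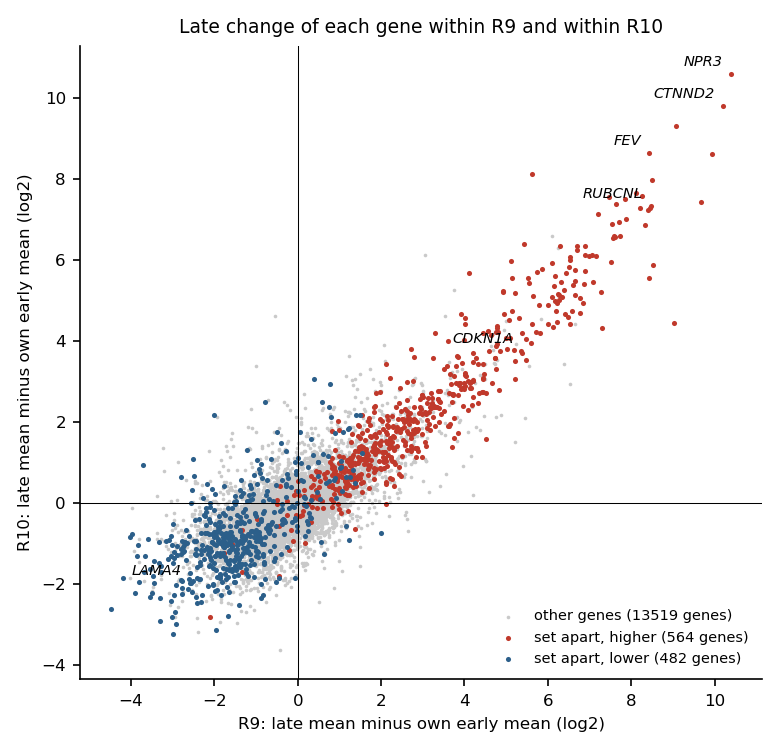
Late mean minus own early mean (log2) of each of 14565 genes in R9 (x axis) and R10 (y axis), with set-apart higher genes in red, set-apart lower genes in blue and the rest in grey. Most red points lie high in both lineages, whereas blue points gather closer to the origin.

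The sequences upstream of the marker genes are shown because GGAA is the core bound by ETS factors, the family of both FLI1 and FEV. Each run holds the 250 bases before an annotated start (RefSeq, GRCh38.p14), 5′ to 3′ on the gene's strand, with GGAA and its reverse complement TTCC in capitals, and where a gene has several starts the 1 with the most such cores is given, or at equal number the 1 with GGAAGGAA. They lie at chr5:11904447-11904696 (minus strand) for CTNND2, chr5:32710399-32710648 (plus strand) for NPR3, chr13:46390043-46390292 (minus strand) for RUBCNL and chr2:218985185-218985434 (minus strand) for FEV.
CTNND2: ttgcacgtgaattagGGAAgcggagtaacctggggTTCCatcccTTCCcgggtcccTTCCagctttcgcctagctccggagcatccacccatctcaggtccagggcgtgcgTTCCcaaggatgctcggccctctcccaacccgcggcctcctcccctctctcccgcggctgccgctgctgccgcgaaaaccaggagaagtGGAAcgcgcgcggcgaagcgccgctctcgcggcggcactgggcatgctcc
NPR3: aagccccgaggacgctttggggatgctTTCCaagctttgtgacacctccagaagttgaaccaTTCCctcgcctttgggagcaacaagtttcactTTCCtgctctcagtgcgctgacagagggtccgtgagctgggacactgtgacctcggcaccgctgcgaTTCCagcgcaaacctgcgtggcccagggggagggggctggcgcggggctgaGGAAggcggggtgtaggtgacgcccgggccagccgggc
RUBCNL: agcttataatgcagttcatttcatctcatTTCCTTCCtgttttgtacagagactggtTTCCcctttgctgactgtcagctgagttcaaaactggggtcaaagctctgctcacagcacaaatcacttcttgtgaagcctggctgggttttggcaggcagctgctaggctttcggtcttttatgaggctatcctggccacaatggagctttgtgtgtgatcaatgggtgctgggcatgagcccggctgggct
FEV: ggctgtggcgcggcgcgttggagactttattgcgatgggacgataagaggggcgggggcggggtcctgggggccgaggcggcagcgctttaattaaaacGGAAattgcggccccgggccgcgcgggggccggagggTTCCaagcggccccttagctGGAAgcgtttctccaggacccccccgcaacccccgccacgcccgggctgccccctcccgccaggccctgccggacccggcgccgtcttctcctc
The CTNND2 run held 6 cores, the NPR3 run 5 and the RUBCNL and FEV runs 3 each, while the other CTNND2 start held 0 and the other NPR3 start 3. The median over the 16444 upstream runs of kept genes was 3, taken over every annotated start, so it is not directly comparable with runs picked for their number of cores. A GGAA core on either strand was present upstream of 94.6% of the 405 set-apart higher genes with a sequence and of 94.4% of 11374 kept genes. Only RUBCNL among the 4 runs held the doubled core GGAAGGAA (read on either strand), which was present in 6.67% of the set-apart higher genes, 5.59% of 340 set-apart lower genes and 4.11% of all kept genes. The motif TGANTCA, which AP-1 factors bind, was present in 11.9% of set-apart higher genes, 9.12% of set-apart lower genes and 6.22% of all kept genes.

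The 49 genes with the largest differences were followed through each lineage as the distance covered between its own early mean and the late R9 mean. In R9 at time point 6 they had covered a median of 1.60% (interquartile range 0.971% to 2.43%), measured from the 4 earlier R9 libraries. R10 at time point 8 stood at 2.05% (1.31% to 2.62%), at time point 9 at 35.9% (26.1% to 40.4%) and at time point 10 at 76.5% (59.7% to 88.2%). Late R8 stood at 0.225%, 0.442% and -0.0347% at time points 8, 9 and 10. R10 at time point 10 was still below R9 by this measure. The 49 genes were chosen from the 7 libraries of the comparison, so positions and levels in those libraries largely follow from the choice. R9 at time point 6, R10 at time point 8 and the treated libraries did not enter it. For the lower side, 21 set-apart genes were followed that were lower on both own baselines. Their early R10 mean was at least 100 and their late R9 mean at least 4-fold below it. Of this distance R10 had covered a median of 58.9% (49.2% to 77.5%) at time point 9 and 89.6% (87.6% to 95.3%) at time point 10. The same R10 libraries helped to choose these genes, so a fall there was required of them. These genes included GLI3, a transcription factor of Hedgehog signalling, and EBF1, a developmental transcription factor. The median log2 level of the 49 genes was 9.16 and 9.40 in late R9, 7.63 and 9.01 in late R10 and 4.36 in R10 at time point 8, against 2.93, 3.18 and 2.23 in late R8. In the 49 treated libraries it lay between 1.56 and 3.74, highest in R1 at time point 9.

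**Figure D3:**
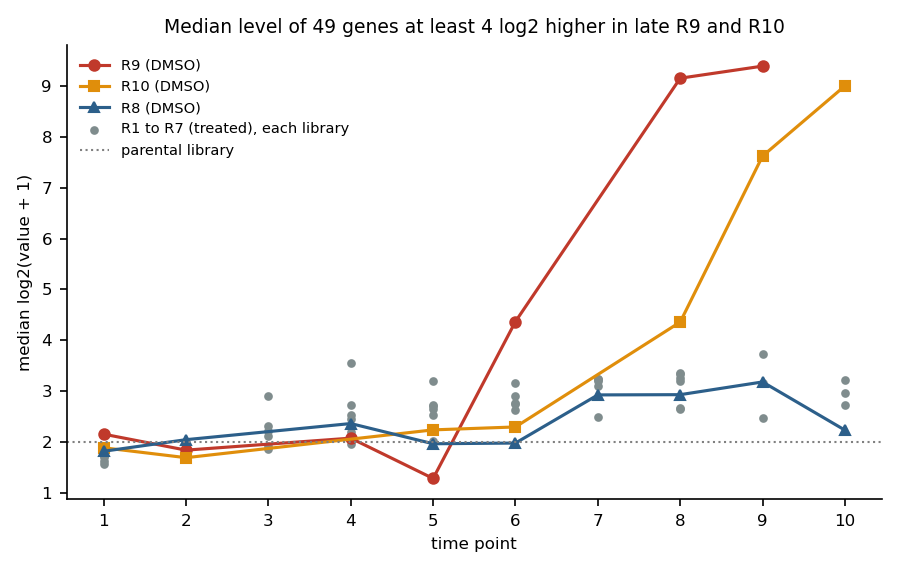
Median log2(value + 1) of the 49 genes at least 4 log2 units higher in late R9 and R10, by time point, in DMSO lineages R9, R10 and R8 and in each treated library (grey points), with the parental library as a dotted line. R9 and R10 leave the band of the other libraries at time points 6 and 8 and reach 9.40 and 9.01, while no treated library exceeds 3.74. The genes were chosen from the late R9, R10 and R8 libraries of the comparison.

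After the markers, the largest set-apart higher differences belonged to genes of varied known roles. PTPN22, a phosphatase of lymphoid cells, stood at 1580 and 2468 in late R9 and at 668.1 and 1567 in late R10, against 14.7, 19.96 and 1.25 in late R8. BLACAT1, a long noncoding RNA, stood at 1343 and 1100 in R9 and at 493.6 and 839.7 in R10, against 0.00565, 2.48 and 0.000731 in R8. BLACAT1 overlaps LEMD1 on chromosome 1, which differed by 7.73 log2 units, and whether counting used strand is not given in the sources used here, so their reads may not be separable. The tryptase genes TPSAB1 (8.15) and TPSB2 (7.34) are near-identical copies, and FRG2 (7.18) belongs to a repeated family, so these assignments are uncertain. TMEM233 (7.25), CYB5R2 (6.96), VMO1 (6.34) and ETV4 were also among the 15 genes with the largest differences agreed by both lineages.

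ETS factors were set apart in 1 direction. Of 18 kept members of 27 listed, 6 were higher (FEV, ETV1, ETV4, ETV5, ETS1 and ELF4) and 0 lower, with a median difference of 0.27 over the list and -0.07 over all genes. FEV was chosen as a marker from these values and passed the filter only through its late R9 and R10 libraries. ETV4, with medians of 4.47 in early and 5.46 in late treated libraries, also leaned on them. The count is therefore partly built in. ETV4 stood at 1215 and 1539 in late R9 and at 367.4 and 823.6 in late R10, against 2.99, 2.81 and 3.69 in late R8. ETV1 stood at 454.2 and 576.2 in R9 and at 172.3 and 404.1 in R10, against 9.19, 11.4 and 3.05 in R8. ETV5, already well expressed early, stood at 7752 and 10429 in R9 and at 3894 and 7210 in R10, against 1150, 1736 and 489.2 in R8. EWSR1 and FLI1 themselves differed by only -0.07 and -0.06 log2 units, and their libraries overlapped between the groups: FLI1 stood at 1083 and 986.5 in R9 and at 1081 and 1061 in R10, against 1119, 1069 and 1106 in R8.

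Genes known as outputs of ERK signalling were set apart in the same direction. In a list of 10 such genes, drawn up after the values were seen and sharing ETV4, ETV5, DUSP6 and EPHA2 with other lists, 6 were set apart higher and 0 lower, with a median difference of 2.77. DUSP6, a phosphatase that inactivates ERK, stood at 4384 and 5982 in late R9 and at 1598 and 3703 in late R10, against 599.6, 928.3 and 263.5 in late R8. The Sprouty feedback inhibitors SPRY2 and SPRY4 differed by 4.45 and 3.60 log2 units. SPRY2 stood at 1689 in treated R2 at time point 10, above late R9 and R10 (291.1 to 1208). The highest late treated values of SPRY4 (116.8) and DUSP6 (798.6) were below late R9 and R10. CCND1, the gene of cyclin D1, differed by 0.29, and EPHA4 by -1.67 without passing the rule. Among 28 receptor tyrosine kinases and ligands, those set apart higher included PDGFA and EPHA2, and ERBB4, PDGFRA, MET and ALK were lower. PDGFA, a ligand of the platelet-derived growth factor receptors, differed by 6.00. Of 27 immediate early genes, FOSL1 (4.29), DUSP2 (3.54) and DUSP6 (2.74) were higher and NR4A3 (-1.33) and CCN2 (-1.12) lower, while the median of the list differed by 1.04. On own baselines 14 of the 27 were higher and 0 lower in R9, 6 higher and 1 lower in R10, and 0 higher and 7 lower in R8 (0.474% of all genes). The median late change of the list was 1.36 in R9, 0.41 in R10 and -0.45 in R8.

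**Figure D4:**
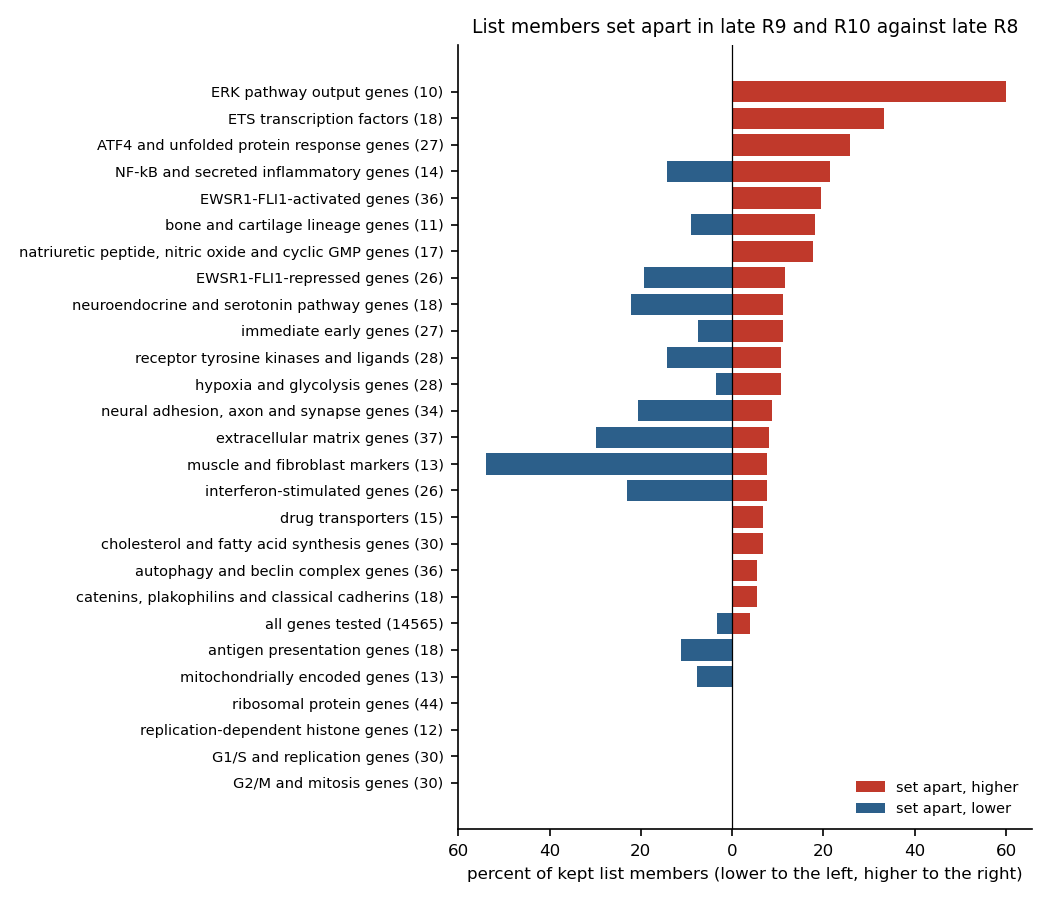
Percent of the kept members of gene lists with at least 10 kept members (number in parentheses) that were set apart higher (red, to the right) or lower (blue, to the left) in late R9 and R10 against late R8, with all 14565 genes as 1 row. The ERK output, ETS and ATF4 lists have red bars and no blue ones, whereas matrix and muscle and fibroblast markers have mostly blue ones.

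CDKN1A, GDF15 and FAS were each set apart higher. CDKN1A, which encodes the cell cycle inhibitor p21, stood at 10116 and 9436 in late R9 and at 2416 and 6010 in late R10, against 935.0, 1210 and 235.4 in late R8. GDF15, a secreted stress cytokine, stood at 787.4 and 850.6 in R9 and at 132.4 and 361.9 in R10, against 21.03, 5.73 and 3.37 in R8. FAS, the death receptor, differed by 2.21 log2 units, and MDM2, a ubiquitin ligase, by 0.32 without passing the rule. The highest late treated value of FAS was 2309, in R1 at time point 9, above late R9 and R10 (868.9 to 1850.5). For CDKN1A it was 3076, in R2 at time point 10, and for GDF15 66.2, in R1 at time point 9.

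Genes of the ATF4 and unfolded protein response were also higher. Of 27 members, 7 were set apart higher (TRIB3, DDIT4, CHAC1, PSAT1, MTHFD2, SLC7A11 and SESN2) and 0 lower, with a median difference of 0.85. TRIB3, a pseudokinase induced by ATF4, stood at 4696 and 4639 in late R9 and at 2589 and 6860 in late R10, against 1373, 268.3 and 529.6 in late R8. DDIT4, an inhibitor of mTORC1, differed by 2.65. CHAC1 stood at 1091 in treated R1 at time point 9, above late R9 and R10 (493.5 to 814.7). The highest late treated value was 3885 for TRIB3, within the late R9 and R10 range, and 355.5 for DDIT4, below it. On own baselines 11 members were higher in R9, 15 in R10 and 1 in R8.

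Against R8, genes activated by the fusion were set apart in 1 direction and genes it represses in both. Of 36 activated genes, 7 were higher (LOXHD1, NKX2-2, TNNT1, FCGRT, FEZF1, GSTM4 and PAX7) and 0 lower, with a median difference of 0.36. NKX2-2, a homeobox factor used as an Ewing marker, stood at 194.4 and 271.6 in late R9 and at 83.7 and 115.8 in late R10, against 28.2, 47.2 and 27.2 in late R8. LOXHD1 differed by 3.70, and NR0B1, a nuclear receptor and direct target of the fusion, by 0.75 without passing the rule. On own baselines the activated genes went both ways, with 8 higher and 5 lower in R9, 4 higher and 3 lower in R10, and 4 higher and 2 lower in both. Of 26 repressed genes, CDKN1A, TNC and CD44 were higher and IGFBP3, COL6A3, CCN2, THBS1 and POSTN lower, with a median of -0.09. CD99, the usual surface marker of Ewing sarcoma, could not serve as a check of identity because it lay at or below 2.31 in all 73 libraries.

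Signalling and neural genes were mixed. Among 17 natriuretic peptide and nitric oxide genes, NPR3 was joined by the nitric oxide synthases NOS1 and NOS3. NOS1 stood at 5072 and 6097 in late R9 and at 1180 and 2665 in late R10, against 207.1, 269.8 and 93.8 in late R8. NOS3 differed by 4.21. Of 18 neuroendocrine genes, VGF and GCH1 were higher and SCG2, INSM1, PCSK1 and PCSK1N lower. The granule proteins VGF (5.77) and SCG2 (-3.86) thus differed in sign against R8. On own baselines, late changes in R9, R10 and R8 were -0.33, -0.77 and 1.95 for SCG2 and 0.88, 0.58 and 2.07 for INSM1. For VGF they were 8.11, 7.64 and 1.57, and for PCSK1 0.56, -0.95 and 1.18. Of 34 neural adhesion and synapse genes, GRIA2 (6.06), UNC13A (3.55) and SEMA3C (1.17) were higher and 7 lower, including MAP2 (-4.54) and DCX (-3.05). Late changes in R9, R10 and R8 were -2.49, 0.67 and 2.30 for MAP2 and -0.15, -0.47 and 1.72 for DCX. Among 14 inflammatory genes, MMP1 (4.57), CXCL8 (4.29) and ICAM1 (2.68) were higher and VCAM1 (-2.50) and TNFAIP3 (-1.82) lower. For CXCL8 the R9 and R10 means exceeded R8 by unequal amounts, 6.59 and 1.99.

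Immune, metabolic and lineage lists were set apart to differing degrees. Among 26 interferon-stimulated genes ISG20 (2.51) and IFITM2 (1.65) were higher and 6 lower, including DDX60 (-3.43), IFIH1 (-2.05) and IFI6 (-1.97). Among 18 antigen presentation genes NLRC5 (-1.96) and ERAP2 (-1.46) were lower. Late changes in R9, R10 and R8 were 0.45, 0.26 and 3.08 for DDX60 and 1.202, 1.83 and 2.05 for IFIH1. For NLRC5 they were 1.39, 2.17 and 1.36, for ERAP2 0.09, 0.56 and 1.52, and for IFI6 -1.27, -0.13 and 1.02. By the own-baseline rule IFIH1 and NLRC5 were higher late in R10, and DDX60 and ERAP2 in R8. Of 28 hypoxia and glycolysis genes, the glucose transporter SLC2A3 (2.49), ALDOC (2.01) and PFKP (1.31) were higher and HK1 (-2.16) lower. STARD4 (1.85) and ELOVL6 (1.27) were higher among 30 cholesterol and fatty acid genes, SLCO4A1 (2.64) among 15 drug transporters, CTNND2 alone among 18 catenins and cadherins, and RUBCNL and ULK2 among 36 autophagy genes. COL9A2 (2.41) and SOX9 (1.22) were higher and TNMD (-2.94) lower among 11 bone and cartilage genes.

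Matrix genes were set apart lower more often than higher. Of 37 extracellular matrix genes, 11 were set apart lower and TNC, TIMP1 and ELN higher, with a median difference of -0.78. LAMA4, a laminin chain, stood at 37.1 and 34.4 in late R9 and at 94.8 and 29.5 in late R10, against 733.0, 574.5 and 843.4 in late R8. THBS1, thrombospondin-1, stood at 8.16 and 11.3 in R9 and at 36.8 and 19.0 in R10, against 622.9, 584.7 and 157.6 in R8. VCAN, the proteoglycan versican, stood at 0.838 and 2.79 in R9 and at 0.00956 and 1.41 in R10, against 90.9, 93.0 and 17.3 in R8. The matrix inhibitor TIMP1 went the other way, at 4644 and 7014 in R9 and at 2017 and 3887 in R10, against 707.3, 896.3 and 261.1 in R8. The remaining genes among the 10 largest lower differences were CHST9, PDGFRA, MRAP2, POSTN, RNF128, EGFL6 and VEGFD, with differences between -3.73 for EGFL6 and -4.78 for RNF128.

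**Figure D5:**
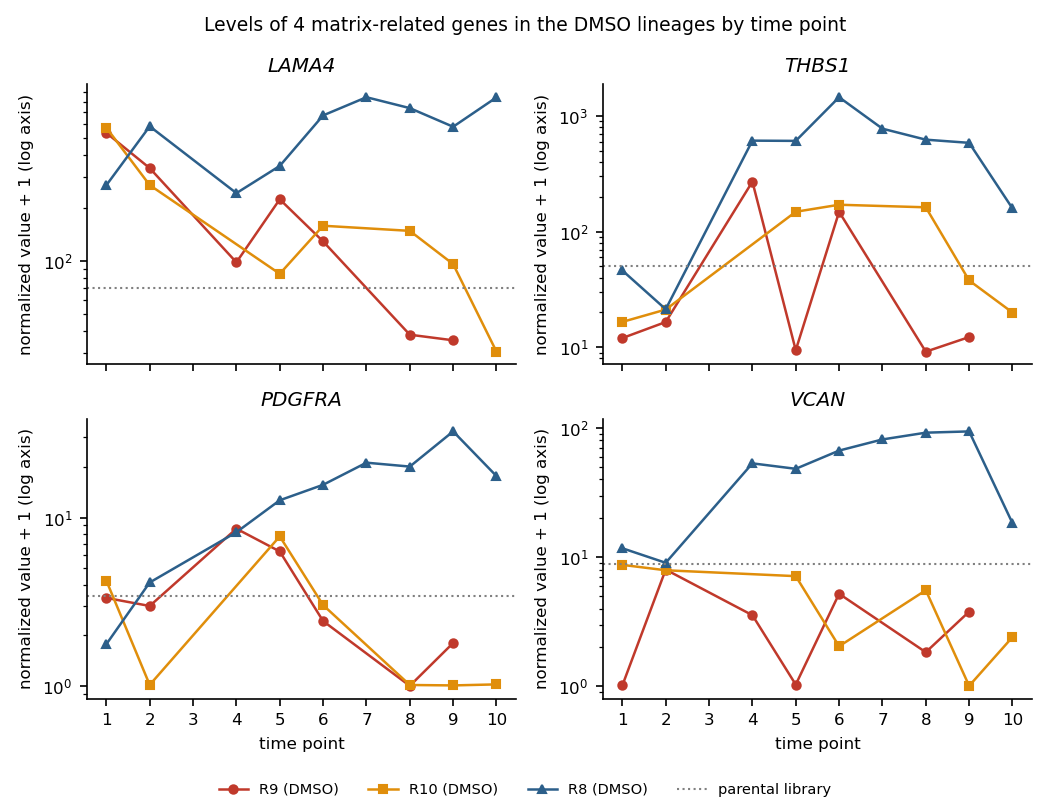
Normalized value + 1 (log axis) of LAMA4, THBS1, PDGFRA and VCAN against time point in DMSO lineages R9, R10 and R8, with 1 point per library and the parental library as a dotted line. R9 and R10 are below R8 in every late library, and R8 itself is above the parental line for all 4 genes in its late libraries.

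Of the 482 set-apart lower genes, 37 were higher late in R8 on its own baseline, among them PDGFRA. The late R8 mean was above its own early mean by 1.79 log2 units for PDGFRA, 0.93 for VCAN, 2.88 for POSTN and 3.24 for CHST9, but for VCAN, POSTN and CHST9 late and early R8 libraries overlapped. The late change of CHST9 was 0.29 in R9 and -0.34 in R10. RNF128 changed by -0.4999 in R9, 1.76 in R10 and 3.73 in R8, and by the own-baseline rule was higher late in R10 and R8. For R9 and R10 the late changes were 0.32 and 1.58 for POSTN, -2.37 and -0.39 for MRAP2 and -0.81 and -1.51 for VEGFD. LAMA4 had a late change of -2.57 in R9, -1.97 in R10 and 0.87 in R8, with late and early libraries overlapping in R10 and R8. VCAN and THBS1 were lower in R9 and R10 already early. Early medians in R9, R10 and R8 were 2.6, 6.5 and 47.3 for VCAN and 15.5, 83.8 and 608 for THBS1. Late changes in R9 and R10 were -0.06 and -1.85 for VCAN and -1.83 and -0.99 for THBS1, with late and early libraries overlapping or the rule otherwise not passed. EGFL6 rested on 1 library, R8 at time point 9, at 180.8, with the other late R8 libraries at 2.99 and 2.35. On own baselines, 8 of the 37 matrix genes were lower and 5 higher late in R9 (9.65% and 7.51% of all genes), and 0 were lower and 7 higher in R10 (4.29% and 4.96% of all genes). The median late change of the list was -0.19 in R9, 0.20 in R10 and 0.22 in R8.

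Genes of a block of chromosome 17 had higher medians in late R9 and R10 than in late R8. By position (RefSeq, GRCh38.p14, 14427 genes placed), the largest median difference shared by both lineages among 153 bins of 20 Mb with at least 20 genes was in the first 20 Mb of chromosome 17, at 0.43 for R9 and 0.50 for R10 over 244 genes, of which 31 were set apart higher and 0 lower. There the median late change within the lineage was -0.12 in R9, -0.03 in R10 and -0.38 in R8. In the 7 treated lineages it was -0.25 in this block and -0.04 over all genes. In the block 89.8% of the genes were lower late than early in R8, against 50.2% of all genes in R8, and 5 of the 244 were lower by the own-baseline rule. ULK2, an autophagy kinase in this block, stood at 469.4 and 474.3 in late R9 and at 380.2 and 481.4 in late R10, against 128.9, 102.4 and 119.6 in late R8. In R8 it had been at 550.9 at time point 1, and in the parental library it was at 703.7.

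Proliferation and ribosomal genes were not set apart. Of 30 G2/M, 30 G1/S, 44 ribosomal protein and 12 histone genes kept, 0 passed the rule, with median differences of 0.24, -0.04, -0.17 and 0.21. MKI67 differed by 0.18 and TOP2A by 0.26, with overlapping libraries, and SLFN11, a factor in the response to DNA-damaging drugs, by 0.45. For MKI67 the lineages differed in sign, at 0.53 for R9 and -0.17 for R10. Median late changes in R9, R10 and R8 were 0.69, -0.17 and 0.04 for G2/M and 0.15, -0.58 and -0.15 for G1/S genes. On own baselines 7 G2/M genes were higher in R9 (7.51% of all genes) and 0 in R10, and 2 G1/S genes were lower in R10 (4.29% of all genes) and 0 in R9. The 13 mitochondrially encoded genes had a median late change of -1.53 in R9 and -1.40 in R10 against -0.54 in R8, with 5 of them lower in both R9 and R10 on own baselines and only ATP8 set apart. For COX1, followed by time point, much of the fall lay within the early libraries. At time points 1 and 2 it stood at 90343 in R9 and R10. It was at 41936 in R9 at time point 4 and at 38972 in R10 at time point 5. Late R9 stood at 41936 and 26217 and late R10 at 41936 and 30047. ATP8 overlaps ATP6 on the mitochondrial genome, so reads of the pair may be shared.

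Markers of other cell types were examined as whole lists. The 23 blood cell markers summed to between 1553 and 3273 in late R9 and R10 libraries, against 570.4 to 643.0 in late R8, and CD4, CD79A, ITGB2 and CORO1A were set apart higher, while 9 of the 23 stayed under 1 in every late R9 and R10 library. The 20 epithelial markers summed to between 641.3 and 2086, against 180.5 to 569.5 in R8, with KRT18 (3.64) set apart. Of the 20, 5 were under 1 in every late R9 and R10 library and 4 in every late R8 library. The 20 muscle and fibroblast markers summed to between 8974 and 11103, against 8971 to 18325 in R8, and DES, PDGFRA, THY1, FAP, DCN, LUM and COL3A1 were lower and ACTA2 higher. The 15 endothelial markers summed to between 874.2 and 1155, against 570.5 to 656.8 in R8, with FLT1 (-2.22) lower. The part of these markers in the other differences was not tested.

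Whether R9 and R10 already stood apart from R8 before the late libraries was tested in the 14 DMSO libraries of time points 1 to 6, which did not define the state (limma on log2 values with a time point term, Benjamini-Hochberg adjusted over 14565 genes). 0 genes were higher and 3 lower (0.0206% of genes), while 1567 had an unadjusted p under 0.05. Because libraries of a lineage are repeated samples, the p compares these 3 cultures only. HLA-E, a nonclassical class I gene, had medians of 580.0 in early R9 and 590.0 in early R10, against 1110 in early R8, a difference of -0.80 ± 0.10 (SE, limma adjusted p = 0.022) without overlap. Late, HLA-E was at 2179 and 2604 in R9 and at 1194 and 2441 in R10, against 997.1, 1173 and 695.0 in R8, so that its order was turned round. DEPP1, a regulator of autophagy, differed by -1.97 ± 0.21 and VMP1, a protein of autophagosome formation, by -0.80 ± 0.08 (SE, limma adjusted p = 0.0063 for both), each with overlapping libraries. None of the 4 markers passed, with adjusted p between 0.71 and 0.89 in limma. Of the set-apart genes none passed either, and the median early difference was 0.08 over the 564 higher and -0.37 over the 482 lower genes, against 0.02 over all. The early difference had the sign of the late one in 311 of the 564 higher and 377 of the 482 lower genes. Of these, 69 and 128 had an unadjusted limma p under 0.05. The calls were not stable: without time point 1 there were 2 higher and 15 lower, without time point 2 there were 9 and 46, without time point 5 only 1 was lower, and without time point 6, or with no time point term, 0 were lower.

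The treated lineages offered libraries that had no part in the definition. Late minus early means of the 7 lineages were tested with limma, which called 717 genes higher (4.92%) and 995 lower (6.83%), with 5119 at an unadjusted p under 0.05. Of the 564 set-apart higher genes 80 were higher and 27 lower late in treated lineages, and of the 482 set-apart lower genes 78 were higher and 27 lower, so that 14.2% of the higher and 16.2% of the lower genes were called higher in treated lineages. RUBCNL alone of the 4 markers passed, by 1.78 ± 0.44 log2 units (SE, n = 7 lineages, limma adjusted p = 0.038), higher in 7 of 7, with R1 at 4.65 and the other lineages between 0.57 and 2.06. Its late treated libraries stayed between 25.6 and 256.1. NPR3, CTNND2 and FEV differed by 0.78, 0.69 and 0.82 with limma adjusted p of 0.21, 0.18 and 0.10. The matrix gene POSTN was higher by 3.81 ± 0.86 (limma adjusted p = 0.035) in 7 of 7 treated lineages, and TRIB3 by 2.28 ± 0.45 (limma adjusted p = 0.027). ULK2 changed by -0.72 ± 0.14 (limma adjusted p = 0.027), and SLFN11 changed by -0.30 ± 0.06 (limma adjusted p = 0.030), each in 7 of 7. The largest called changes were 4.29 for EPB41L3, 3.81 for POSTN and 3.02 for TFPI2 on the higher side and -1.89 for WNT3, -1.83 for CCNA1 and -1.80 for MIR34AHG on the lower side. These calls rest on few libraries: with the early mean taken without time point 1, or without R2 or R7, 0 genes passed in either direction, without R3 there were 2 higher and 0 lower, without R4 there were 15 and 11, and without R1 there were 483 lower.

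Over all kept genes, late R9 lay farther from late R8 than late R10 did. The root mean square log2 distance was 1.08 to 1.31 between late R9 and late R8 libraries and 0.708 to 1.03 between late R10 and late R8, against 0.460 to 0.600 among the R8 libraries. Late R9 and R10 lay 0.629 to 0.840 apart. R10 at time point 8 lay 0.630 to 0.752 from late R8 and 0.988 and 1.16 from late R9. From the parental library, late R9 lay at 1.19 and 1.28 and late R10 at 0.903 and 1.15, against 0.900 to 0.923 for late R8.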

How the data were processed

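Bulk RNA-seq libraries were made from total RNA (Qiagen AllPrep). The labels' protocols give STAR for alignment and counting. STAR, featureCounts and GRCh38 appear in the submitters' processing notes, with no versions. The values the authors deposited are a signal: counts after quantile normalization, covering 36233 genes and 73 libraries. Each treated column sums to 13583520 and each DMSO column to 13582508. How the normalization was done is not given in the sources used here, the depth is unknown, and quantile normalization hides any change in total RNA.

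Samples were grouped by the labels. Values were analysed as log2(value + 1) for the 14565 genes averaging 10 or more. The software was limma 3.58.1 with its trend option under R 4.3.3 (data.table, version 1.17.8), and Python 3.11.15 with pandas 2.3.3, numpy 2.4.6 and matplotlib 3.10.9. The contrast that chose the markers was only described. Early DMSO libraries and the 7 within-lineage treated changes were tested with limma, threshold 0.05 after Benjamini-Hochberg adjustment. Nothing in the labels says that libraries of a lineage came from separate cultures, so p-values measure the spread between these samples.

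The markers, the 29 gene lists (816 members, 14 under another symbol) and the settings were chosen with earlier results of these data known, and the list of ERK output genes after the values were seen. Named genes were the 4 markers, the 15 higher and 10 lower genes with the largest agreed difference, up to 3 set-apart members per list and direction, EWSR1, FLI1, NR0B1, MKI67, TOP2A, CDKN1A, MDM2 and SLFN11, and the 3 largest tested changes per direction. GLI3, EBF1 and further list members named without the rule were chosen after their values were seen. Some named genes and 1 gene list are not reported here. In simulated data with 14565 genes, a log2 difference of 1 was recovered for 67% of changed genes in the early comparison and 76% in the treated one, and the definition of set apart recovered 34% at 1 and 94% at 2. Unchanged genes of the data made in this way gave 6 false calls in the early comparison and 12 in the treated one. For set apart they gave 45. The simulated data also held changed genes, and Benjamini-Hochberg adjustment lets false calls grow with the number of true ones. The 6 and 12 are therefore no measure of the 3 genes called in the real early comparison. Simulated noise was drawn independently, with no lineage effect. The part of differences between single cultures in the real calls was not tested. Alternatives were another pseudocount, filter, scaling, choice of libraries and limma setting.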

Additional observations from a re-analysis of the deposited data

Results flagged for a closer look

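The markers had values above their controls in the R10 library of time point 8, which was not used to define the late state. NPR3 was at 112.7, CTNND2 at 43.3, RUBCNL at 84.6 and FEV at 33.7, each above every late R8 and every early R10 library.

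A single library stood far from the others of its group in 15 of 84 groups examined by Dixon's rule, of which chance would give about 1 in 20. Within early R9, time point 6 stood apart for NPR3 (121.7), CTNND2 (49.6) and FEV (25.4), and for TFPI2 at the low level of 2.83, and time point 1 for SLFN11 (4992). Within early R10, time point 5 stood apart for EPB41L3 (31.3), TFPI2 (6.74) and FEV (1.30), and time point 2 for NPR3 (4.27). Within early R8, time point 2 stood apart for CDKN1A (62.1, the lowest), time point 1 for MIR34AHG (538.0) and time point 5 for FEV (0.832). Among the late changes of the treated lineages, R1 stood apart for RUBCNL (4.65), R5 for MKI67 (-0.72) and R4 for MIR34AHG (-3.52).

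SLFN11 moved in opposite directions late in the DMSO lineages: each late library of R9 and R10 lay above the early mean of its lineage, by a mean of 0.52 in R9 and 0.17 in R10, and each late library of R8 below, by a mean of -0.14. This difference was not tested.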

How the results depend on the processing

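All counts are genes, higher and then lower. Centring libraries on their median changed no count by more than 1.5 times. Genes set apart (564 and 482) became 927 and 768 with a mean of at least 1, 1061 and 813 with no filter, 253 and 274 with R10 at time point 8 added, and 211 and 113 with an agreed difference of at least 2. Of the 564 and 482 genes, 470 and 333 were also called with pseudocount 10, 240 and 256 with R10 at time point 8 added, and 352 and 267 with time point 9 alone, which called 461 and 536 in all. Leaving out 1 late library gave 443 to 734 higher and 328 to 835 lower, the highest lower count without R10 time point 9.

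Within lineages, pseudocount 10 left 325 lower in R10, 141 in both R9 and R10 and 36 in R8. A mean of at least 1 gave 1773 higher in R9, 1316 and 1274 in R10, 912 higher in both, and 246 and 175 in R8. No filter gave 2146 higher in R9, 1599 and 1323 in R10, 1025 and 416 in both, and 276 and 188 in R8. Early time points 5 and 6 alone gave 1128 lower in R10, 552 in both and 220 in R8. Leaving out 1 late library gave 1094 to 1319 higher and 1406 to 2059 lower in R9, 673 to 1083 higher and 500 to 1367 lower in R10, 126 to 232 higher and 69 to 122 lower in R8, and 477 to 761 higher and 178 to 655 lower in both R9 and R10.

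In the early comparison 0 genes were lower with no filter, with no time point term and without trend, and leaving out 1 time point gave 0 to 9 higher and 0 to 46 lower. In the treated comparison, which pairs late and early means of a lineage as a replicate block, the fit with no replicate block called 1329 and 2124, time point 7 counted as late 1332 and 1784, no trend 442 higher, no filter 0 and 3, and early means without time point 1 called 0 and 0. Leaving out 1 lineage gave 0 to 889 higher and 0 to 1383 lower. The cause of these shifts was not tested. For the 118 named genes kept, 1428 of 1534 recomputed late differences moved by less than the spread between libraries, 106 by more (50 of them with time point 9 alone), and of the set-apart genes 0 changed sign, while MDM2 and VMP1, which were not set apart, did so in 1 setting each. The depth of each library is unknown, so no counting error can be given, and low values near the bottom of a library carry little information.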
